A study of Homo sapiens with 9 samples.

Results

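The miRNAs described here come from the cluster of hairpins in an intron of CLCN5 on the X chromosome that runs from miR-532 to miR-502. They are the 10 mature arms hsa-miR-532-5p, hsa-miR-532-3p, hsa-miR-188-5p, hsa-miR-500a-3p, hsa-miR-362-5p, hsa-miR-362-3p, hsa-miR-501-5p, hsa-miR-501-3p, hsa-miR-502-3p and hsa-miR-660-5p (the species prefix is dropped below), taken by name from the 2654 mature names of the count table, where each has a single row. They were measured by small RNA sequencing of the E6-1 clone of Jurkat, a long-established human leukaemia line of T cell origin, so that the cells are 1 clone and not primary T cells. Cells were left unactivated (0 h) or were activated for 5 h or 12 h on plates coated with 10 µg/mL of anti-CD3, which triggers the T cell receptor complex, with 5 µg/mL of soluble anti-CD28, which triggers a costimulatory receptor. Each time had 3 biological replicates, and unactivated cells were collected at 0 h only, so that activation and time in culture cannot be told apart.

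A miRNA is cut from a hairpin in a longer transcript as a short duplex, and 1 strand of it, from the 5′ (5p) or the 3′ (3p) side of the hairpin, guides a silencing complex to messenger RNAs that pair with its seed, bases 2 to 8. Hairpins that lie together in an intron can be released from the same host transcript, yet the mature arms can still reach different levels through processing, strand choice and turnover. The host gene CLCN5 encodes an endosomal chloride and proton exchanger whose loss causes Dent disease of the kidney.

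In GENCODE 29 (GRCh38) the cluster had 8 hairpins on the plus strand of chromosome X, between 50003148 and 50014683, a span of 11536 bases. The order was MIR532, MIR188, MIR500A, MIR362, MIR501, MIR500B, MIR660 and MIR502. All 8 lay inside an intron from 49925315 to 50042315 in each of the 3 CLCN5 transcripts that span them, and the other 6 of the 9 annotated CLCN5 transcripts did not span the cluster. MIR532 and MIR188 were 264 bases apart and were followed by a gap of 4842 bases. The gaps between neighbours from MIR500A through MIR362 and MIR501 to MIR500B were 449 to 866 bases, and MIR660 followed after 2490 bases.

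The set of RefSeq entries (GRCh38.p14) used here, which was not complete, held mature sequences for 9 of the 10 members, all but miR-660-5p. They are shown because several are so alike that their reads and targets are hard to tell apart, with the seed in capitals.
miR-532-5p: cAUGCCUUgaguguaggaccgu
miR-532-3p: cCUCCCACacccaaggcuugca
miR-188-5p: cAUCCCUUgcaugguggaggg
miR-500a-3p: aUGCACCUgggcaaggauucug
miR-362-5p: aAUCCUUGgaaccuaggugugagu
miR-362-3p: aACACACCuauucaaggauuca
miR-501-5p: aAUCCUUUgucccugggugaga
miR-501-3p: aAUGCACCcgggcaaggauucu
miR-502-3p: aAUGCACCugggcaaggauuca

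Within the cluster, miR-501-3p and miR-502-3p shared the seed AUGCACC and differed at 2 of 22 positions, C9U and U22A, counted from the 5′ end with the miR-501-3p base first. miR-500a-3p carried the same letters as miR-502-3p over a run of 20 bases but began 1 base later, which gave it the seed UGCACCU. miR-362-5p had the seed AUCCUUG, which it shared with miR-500b-5p from a neighbouring hairpin. The seeds of miR-532-5p, miR-532-3p and miR-501-5p were found in no other human mature miRNA that is both in this set of entries and in the count table. Within the same set, the seeds of miR-188-5p and miR-362-3p were each shared with 1 miRNA from elsewhere in the genome, miR-6866-3p and miR-329-3p. Neither of these had counts in any library.

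The hairpins of miR-500a, miR-500b and miR-502 are given here with both mature arms in capitals, because these arms are among those whose counts could be exchanged.
MIR500A: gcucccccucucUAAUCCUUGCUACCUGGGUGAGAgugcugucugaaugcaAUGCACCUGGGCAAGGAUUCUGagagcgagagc
MIR500B: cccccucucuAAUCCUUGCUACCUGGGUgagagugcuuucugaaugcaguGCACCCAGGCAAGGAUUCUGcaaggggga
MIR502: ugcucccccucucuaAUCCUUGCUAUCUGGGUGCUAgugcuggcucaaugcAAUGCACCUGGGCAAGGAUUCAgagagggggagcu
All 18 bases of miR-500b-5p were contained in miR-500a-5p, and all 23 bases of miR-500a-5p also lay within the MIR500B hairpin. A read of either arm, short or full length, therefore fits both hairpins. How the authors assigned such reads is not given in the sources used here, and the counts of miR-500a, miR-500b, miR-501 and miR-502 arms are therefore uncertain relative to each other.

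Total counts ranged from 6631839 to 16207031 per library. Some mature names have several precursor rows in these totals, and with each name counted once the range was 4232272 to 10450005. The shallowest libraries were the third replicates of 12 h and 0 h, and the members' changes and calls were also computed without this pair. Levels are given as CPM, that is, a row's counts for every 1000000 counts in the TMM-scaled library total, and 3 counts correspond to 0.176 to 0.471 CPM. Such limits cover counting error only, since amplified reads with no molecular identifier do not each stand for a molecule. As a check on the labelled activation, miR-132-3p, whose gene CREB switches on, was higher at 5 h and 12 h than at 0 h. It had 3192 ± 295 CPM at 5 h and 3532 ± 136 at 12 h, against 442 ± 39.9 at 0 h (SD, n = 3 each). All 5 lymphoid and blood markers were present in all libraries, with miR-181a-5p at 25491 CPM or more. Of 14 markers of other cell types, 5 had no count in any library, among them miR-124-3p (neural), miR-1-3p (muscle) and miR-205-5p (epithelial). Other markers of neural and epithelial cells were present in every library. The neural miR-9-5p had 107 CPM or more, and the epithelial miR-200c-3p and miR-203a-3p had 66.3 and 19.3 CPM or more. The liver marker miR-122-5p ranged from 0 to 66.8 CPM, with a mean of 23.0 ± 37.9 at 5 h against 1.40 ± 1.21 at 0 h. The summed level of the 14 was 461 to 568 CPM at 5 h and 420.3 to 501.999 CPM at 12 h, against 356 to 473 CPM at 0 h, and came mainly from miR-9-5p, miR-223-3p and miR-200c-3p. Its part in the results was not tested.

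The cluster had counts in every library. Its 10 members together had 1126, 987 and 1150 CPM in replicates 1, 2 and 3 at 0 h, 991, 848 and 964 CPM at 5 h, and 963, 988 and 1349 CPM at 12 h. The highest value was replicate 3 of 12 h, and otherwise the 3 times overlapped. The means were 1087 ± 88.0 CPM at 0 h, 934 ± 75.7 CPM at 5 h and 1100 ± 216 CPM at 12 h (SD, n = 3), or 0.106%, 0.0952% and 0.110% of all counts. For scale, over the 9 libraries the 6 arms of the intronic miR-106b~25 cluster summed to 23017 ± 3315 CPM and 9 arms of the miR-17~92 cluster to 28215 ± 1432 CPM, against 1041 ± 146 CPM for the CLCN5 cluster. The CLCN5 cluster was the lowest of these in each library, with a highest value of 1349 CPM, where the lowest value of the others was 20325 CPM. For these sums each mature name was taken from its row with the most counts, whichever precursor that row named. The sums of the other clusters therefore need not come from their own locus alone.

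Within the cluster, mean levels fell over a 75.5-fold range from miR-660-5p to miR-532-3p, the highest and lowest members that passed the filter on low counts. miR-660-5p, reported to repress the p53 regulator MDM2 in human lung cancer cells, had 328 ± 64.4 CPM over the 9 libraries (SD). miR-532-5p, reported to repress the transcription factor RUNX3 in human gastric cancer cells, had 241 ± 45.1 CPM. miR-501-3p, reported to repress an AMPA receptor subunit in mouse neurons, had 169 ± 44.8 CPM. miR-362-5p, reported to repress the NF-kB inhibitor CYLD in human cancer cells, had 149 ± 25.4 CPM. These 4 arms held 85.0% of the members' counts.

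The middle of the range was formed by miR-501-5p with 62.8 ± 13.9 CPM, miR-500a-3p with 44.6 ± 7.38, miR-188-5p with 21.9 ± 8.43 and miR-502-3p with 19.3 ± 3.87 CPM. miR-188-5p is reported to favour fat over bone formation in mouse marrow stromal cells. The lowest members were miR-532-3p with 4.35 ± 2.598 CPM and miR-362-3p, which had a total of 82 counts in the 9 libraries. Neighbours in this order were separated to different degrees. miR-362-5p and miR-501-5p did not overlap in any pair of libraries, nor did miR-502-3p and miR-532-3p. miR-660-5p was above miR-532-5p, and miR-532-5p above miR-501-3p, in 9 of 9 libraries, although their ranges overlapped. The order was not steady for miR-501-3p over miR-362-5p, seen in 6 of 9 libraries, or for miR-188-5p over miR-502-3p, seen in 5 of 9.

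**Figure D1:**
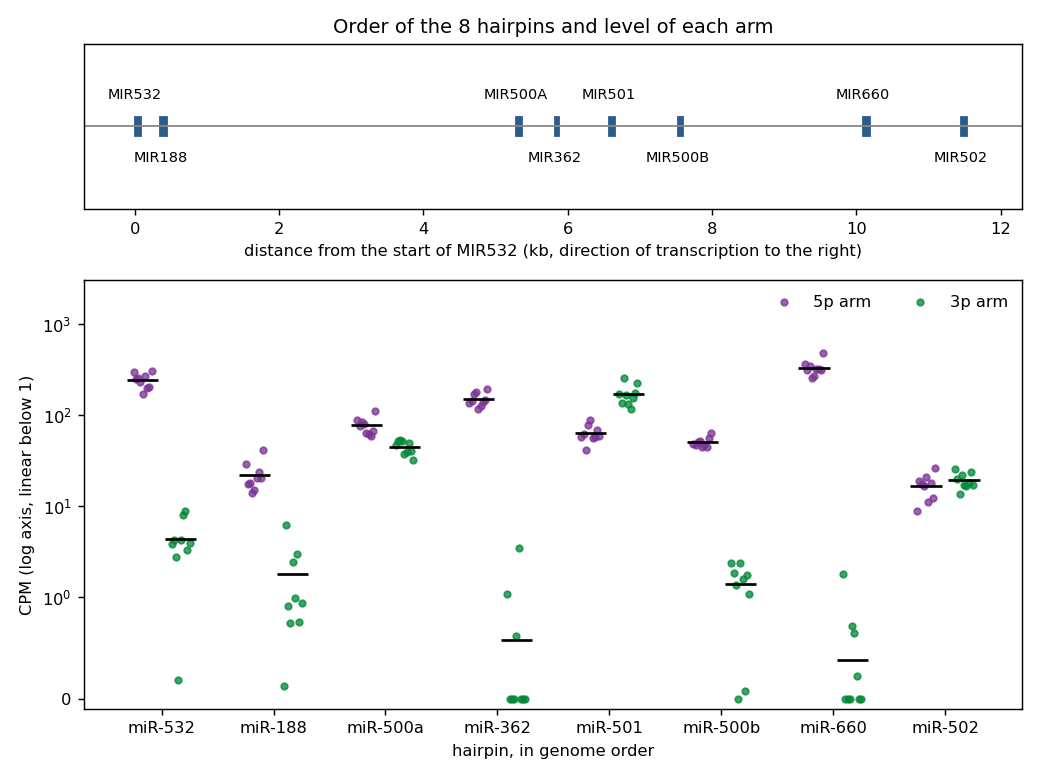
Top, the 8 hairpins along the host intron by distance from the start of MIR532 in kb. Bottom, CPM of the 5p and 3p arm of each hairpin on a log axis that is linear below 1, with 1 point per library (9) and a line at the mean; miR-660-5p is highest with a mean of 328 CPM, and miR-501 is the only hairpin whose 3p arm is above its 5p arm in every library.

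The first question was whether any member had changed 5 h after activation. None of the 9 members tested passed (edgeR quasi-likelihood test with Benjamini-Hochberg adjustment, threshold 0.05), where 1.57% of all 701 tested rows did. The members' adjusted p was 0.695 to 0.996. The 5 h and 0 h libraries overlapped for every tested member, against a background of 10.8% of rows whose groups did not overlap. The point estimate was below 0 for 7 of 9 members and for 46.8% of all rows, and the median log2 fold change was -0.23 for the members and 0.03 for all rows.

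miR-660-5p had 361.7, 308.7 and 342.5 CPM at 0 h, 252.7, 267.4 and 316.4 CPM at 5 h, and 320.0, 311.8 and 475.0 CPM at 12 h, in replicates 1, 2 and 3. Its lowest pair of values was at 5 h, and replicate 3 of 12 h stood above all others. The log2 fold change was -0.28 at 5 h against 0 h (95% interval -0.62 to 0.07, edgeR adjusted p = 0.811), which corresponds to 0.826-fold with limits of 0.650 and 1.05. Larger changes of this arm in either direction lie outside the interval. With each library left out in turn the log2 value stayed between -0.41 and -0.19.

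miR-532-5p had 295, 249 and 255 CPM at 0 h, 232, 171 and 263 CPM at 5 h, and 195, 203 and 304 CPM at 12 h. The 0 h libraries were close together, whereas at 5 h and 12 h a single library was apart from the others, replicate 2 on the low side and replicate 3 on the high side. Its log2 fold change was -0.26 at 5 h (interval -0.65 to 0.13, edgeR adjusted p = 0.996) and -0.19 at 12 h (interval -0.58 to 0.20, adjusted p = 0.974). With 1 library left out, the 5 h value ranged from -0.44 (without replicate 3 of 5 h) to -0.15 (without replicate 1 of 0 h). The 12 h value ranged from -0.46 (without replicate 3 of 12 h) to -0.11 (without replicate 2 of 12 h). Its partner miR-532-3p had 3.79, 4.28 and 2.74 CPM at 0 h, 0.187, 4.21 and 7.98 CPM at 5 h, and 8.74, 3.29 and 3.92 CPM at 12 h. Only 2 counts stood behind the lowest of these. The interval at 5 h ran from -1.64 to 2.03, so changes of several fold in either direction lay within it.

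The opposite arms of miR-501 moved apart in their point estimates. miR-501-5p had 56.7, 61.2 and 41.3 CPM at 0 h, 78.3, 88.4 and 55.1 CPM at 5 h, and 57.0, 68.3 and 58.5 CPM at 12 h. A pair of 5 h libraries was above every other library, while replicate 3 of 5 h lay within the 0 h range. The log2 fold change at 5 h was 0.47 (interval -0.00125 to 0.95, edgeR adjusted p = 0.695, unadjusted p = 0.0505), which did not pass. It was 0.27 without replicate 2 of 5 h and 0.32 without replicate 3 of 0 h. miR-501-3p had 170, 134 and 254 CPM at 0 h, 165, 133 and 116 CPM at 5 h, and 155, 173 and 226 CPM at 12 h. Its high values were the third replicates of 0 h and 12 h, the shallowest libraries. The log2 fold change at 5 h was -0.43 (interval -0.89 to 0.02, edgeR adjusted p = 0.703). When replicate 3 of 0 h was left out, this change was -0.14.

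miR-362-5p had 136, 141 and 170 CPM at 0 h, 176, 115 and 125 CPM at 5 h, and 137, 145 and 192 CPM at 12 h. A high library occurred at every time, in replicate 3, 1 and 3, and the groups overlapped throughout. For this arm the log2 fold change was -0.10 at 5 h (interval -0.50 to 0.30, edgeR adjusted p = 0.996) and 0.08 at 12 h (interval -0.32 to 0.49, adjusted p = 0.991). miR-362-3p had 17 counts in replicate 1 of 0 h, 6 and 59 counts in replicates 2 and 3 of 5 h, and 0 counts in the other 6 libraries, including all 3 at 12 h. This arm did not pass the filter on low counts, so no change was tested, and a count of 0 allows up to 0.471 CPM in the shallowest library.

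miR-188-5p had 28.7, 17.5 and 17.8 CPM at 0 h, 13.8, 14.9 and 20.2 CPM at 5 h, and 23.5, 20.2 and 41.0 CPM at 12 h. The highest value was again replicate 3 of 12 h, and 5 h held the lowest pair. Its log2 fold change was -0.39 at 5 h (interval -1.10 to 0.32, edgeR adjusted p = 0.996) and 0.39 at 12 h (interval -0.31 to 1.10, adjusted p = 0.965). The 5 h value ranged from -0.61 without replicate 3 of 5 h to -0.079 without replicate 1 of 0 h, the highest library of its time.

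miR-500a-3p had 47.3, 51.2 and 52.7 CPM at 0 h, 51.4, 37.5 and 39.6 CPM at 5 h, and 49.5, 40.3 and 32.2 CPM at 12 h. The 0 h libraries were close together, and in contrast to miR-188-5p the lowest value was replicate 3 of 12 h. The log2 fold change was -0.23 at 5 h (interval -0.72 to 0.25, edgeR adjusted p = 0.996) and -0.31 at 12 h (interval -0.79 to 0.18, adjusted p = 0.902). With each library left out in turn these ranged from -0.43 to -0.20 at 5 h and from -0.51 to -0.20 at 12 h. miR-502-3p had 25.8, 19.96 and 13.7 CPM at 0 h, 21.7, 16.8 and 16.7 CPM at 5 h, and 18.1, 23.8 and 16.9 CPM at 12 h. Both the highest and the lowest of these were 0 h libraries, and the log2 fold change was -0.11 at 5 h and -0.02 at 12 h. Summing the near-identical 3p arms of miR-500a, miR-500b, miR-501 and miR-502 into 1 feature gave 200 ± 33.3 CPM at 5 h, against 258 ± 58.4 CPM at 0 h. The log2 fold change of the sum was -0.34 at 5 h (interval -0.70 to 0.02, edgeR adjusted p = 0.713).

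**Figure D2:**
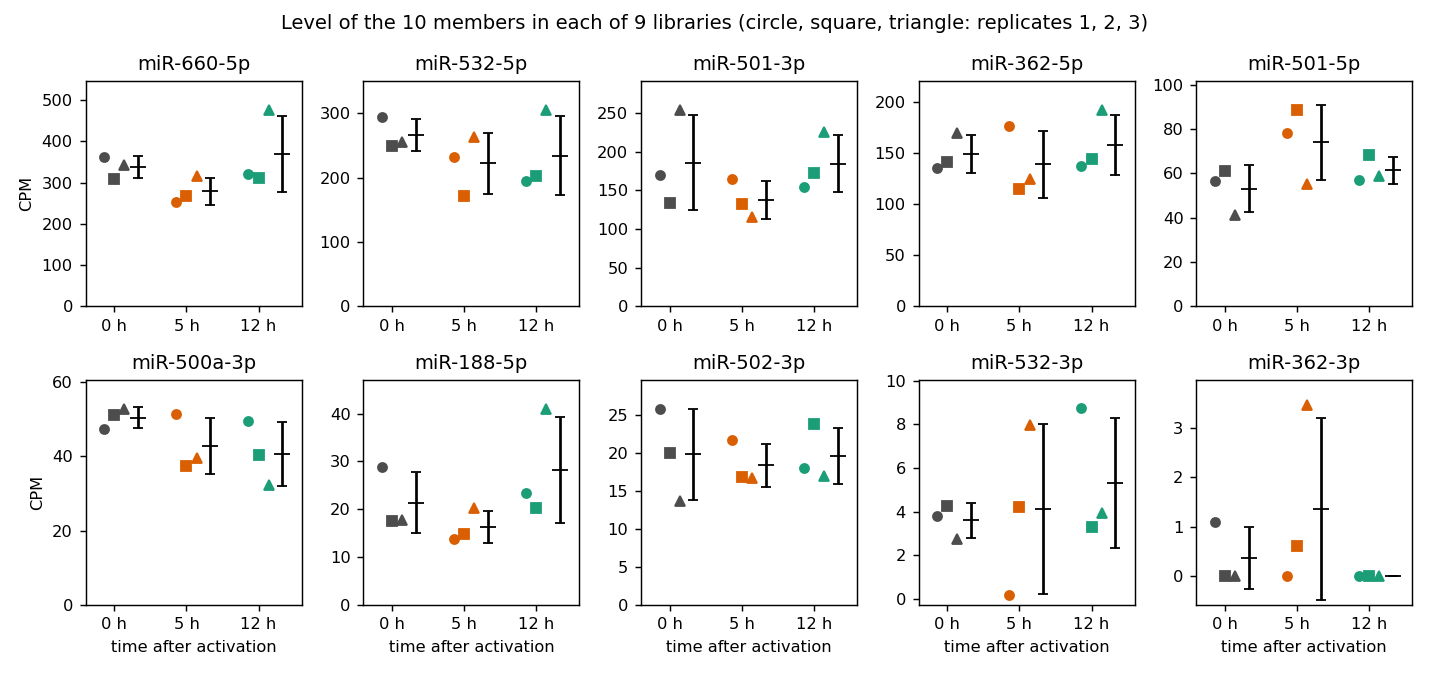
CPM of each of the 10 members (vertical axis, own scale per panel) at 0 h, 5 h and 12 h, with 1 symbol per library and, to the right, the mean and SD of 3 libraries. The times overlap in every panel, and the triangle of 12 h (replicate 3, the shallowest library) is the highest point for miR-660-5p (475 CPM), miR-532-5p, miR-362-5p and miR-188-5p.

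At 12 h against 0 h none of the 9 tested members passed either, where 1.43% of all rows did (edgeR, adjusted p of the members 0.902 to 0.992). None had groups that did not overlap, against 12.1% of all rows. The point estimates were split, 4 below and 5 above 0 (48.1% of all rows were below), with a median log2 fold change of 0.08 for the members and 0.01 for all rows. For miR-660-5p it was 0.13 (interval -0.22 to 0.47, adjusted p = 0.974). For 6 of the 9 members the sign of the 12 h estimate changed when 1 library was left out. Without replicate 3 of 12 h it was -0.13 for miR-660-5p, -0.11 for miR-362-5p and -0.00351 for miR-188-5p. Without replicate 3 of 0 h it was 0.28 for miR-501-3p, which otherwise had -0.01.

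Between 12 h and 5 h, 0 of 9 members passed, where 0.571% of all rows did (edgeR, adjusted p 0.720 to 1). None had groups that did not overlap, against 12.8% of rows, and 2 of 9 estimates were below 0, against 52.2% of rows. The intervals of a pair of members lay above 0. miR-188-5p was higher at 12 h by a log2 fold change of 0.78 (interval 0.07 to 1.49, unadjusted p = 0.0321, adjusted p = 0.720), and miR-660-5p by 0.40 (interval 0.06 to 0.75, unadjusted p = 0.0247, adjusted p = 0.720). An unadjusted p under the threshold was reached by 2 of 9 members and by 6.13% of all rows, and in both members the groups overlapped. The unadjusted p was under the threshold for 0 of 9 members at 5 h and at 12 h against 0 h, where 5.99% and 7.28% of rows reached it. Without replicate 3 of 12 h the changes were 0.40 for miR-188-5p and 0.16 for miR-660-5p. When the 3 times were tested together, 0 of 9 members passed, against 1.71% of all rows, with an adjusted p of 0.857 for miR-660-5p, miR-188-5p, miR-501-3p and miR-501-5p and 0.999 for the others (edgeR). Any pair of these comparisons shares 3 libraries, so they are not independent of each other.

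**Figure D3:**
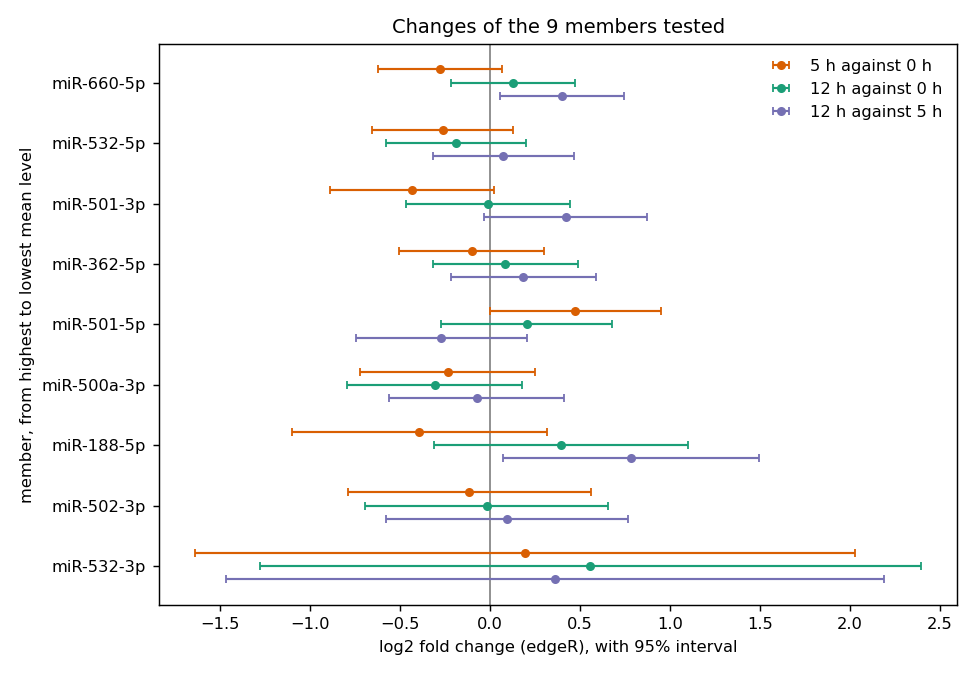
Log2 fold changes of the 9 tested members (rows, highest mean level at the top) with 95% intervals from edgeR for 5 h against 0 h, 12 h against 0 h and 12 h against 5 h. Most intervals cross 0; those of miR-660-5p and miR-188-5p for 12 h against 5 h start at 0.06 and 0.07, and those of miR-532-3p are the widest.

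The biological coefficient of variation estimated by edgeR was 17.5% for miR-660-5p, 19.3% for miR-532-5p and 20.1% for miR-362-5p. It was 21.8% to 24.2% for miR-501-3p, miR-501-5p and miR-500a-3p, 32.2% for miR-502-3p and 33.3% for miR-188-5p. For miR-532-3p, with 493 counts in all, it was 76.5%. The spread between libraries was thus smallest in the most abundant arms. Replicate 3 of 12 h held the highest value of 4 of the 10 members and of 7 of the 16 arms of the 8 hairpins. Outside the cluster, the summed miR-106b~25 arms were also highest in that library, at 28981.5 CPM. The summed miR-17~92 arms were instead highest in replicate 2 of 5 h, at 30629.8 CPM. The lowest value was in a 5 h library for 6 members, in a 0 h library for 2 and in a 12 h library for 1. The remaining member, miR-362-3p, was at 0 in several libraries. Such counts of highest and lowest libraries were not made over all tested rows.

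The hairpins differed widely in the share of their counts on each arm. The 5p arm held 95.7% to 99.9% of the miR-532 counts, 97.3% to 100% of the miR-362 counts and 99.5% to 100% of the miR-660 counts in single libraries. At the other end, the 5p arm held 13.99% to 40.01% of the miR-501 counts. That share was 54.3% to 77.4% in miR-500a and 25.5% to 60.7% in miR-502, whose range overlapped that of miR-501. Reads of these hairpins are among those that could be exchanged. For miR-188 the 5p share was 73.6% to 99.6%, and the lowest value came from replicate 2 of 0 h, which held 82 counts of miR-188-3p.

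In miR-501 the 5p share was 25%, 31.4% and 13.99% at 0 h, 32.2%, 40.01% and 32.2% at 5 h, and 26.9%, 28.3% and 20.6% at 12 h. The 5 h libraries were all above those of 0 h and 12 h, although the gap to replicate 2 of 0 h was under 1 percentage point. The means were 34.8% ± 4.49 at 5 h, against 23.5% ± 8.81 at 0 h (SD, n = 3). The log2 ratio of 5p to 3p was higher at 5 h than at 0 h by 0.87 (interval 0.18 to 1.55, limma, unadjusted p = 0.0161). It did not pass when adjusted over the 165 hairpins with both arms tested (adjusted p = 0.479), of which 0.606% passed. Groups that did not overlap were found in 18.2% of these hairpins at 5 h against 0 h, in 14.5% at 12 h against 0 h and in 15.2% at 12 h against 5 h; in the cluster miR-501 alone showed this, at 5 h against 0 h and at 12 h against 5 h. Without replicate 3 of 0 h, the library with the lowest 5p share, the difference was 0.45. For 12 h against 5 h the ratio differed by -0.67 (adjusted p = 0.615), and for 12 h against 0 h by 0.20 (adjusted p = 0.866). The share in the third replicates of 0 h and 12 h, which were also the shallowest, was the lowest of its time, and the part of depth in it was not tested. None of the other 5 hairpins with both arms tested (miR-532, miR-188, miR-500a, miR-500b and miR-502) passed in any comparison. For miR-532 the difference in the log2 ratio was 0.57 at 5 h (interval -1.76 to 2.89, limma adjusted p = 0.948).

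**Figure D4:**
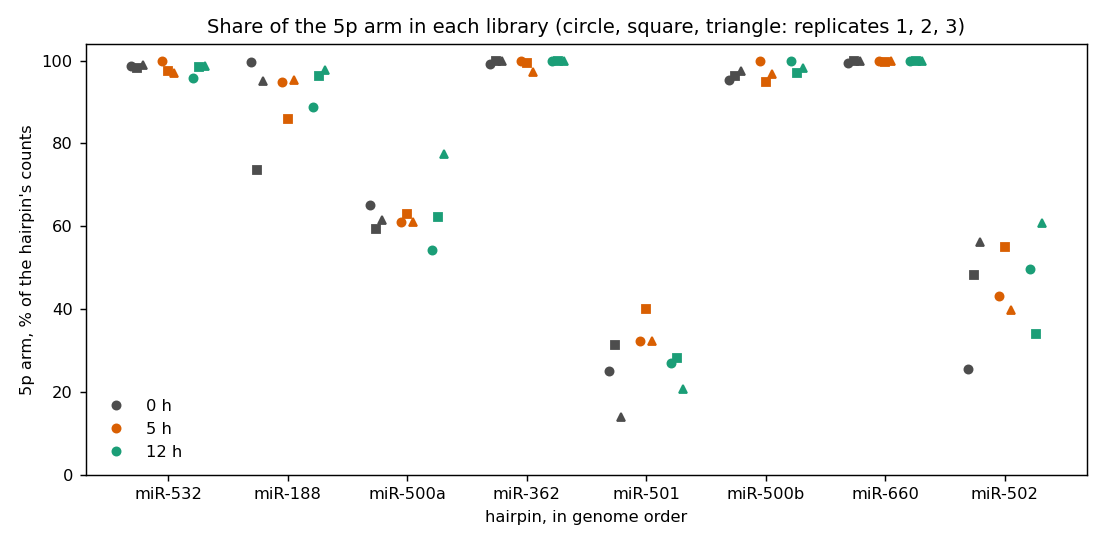
Share of the 5p arm in the counts of each hairpin (vertical axis, percent) in genome order, with 1 symbol per library coloured by time. miR-532, miR-362 and miR-660 lie above 95%, and miR-501 lies lowest, at 32.2% to 40.01% at 5 h against 13.99% to 31.4% at 0 h.

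With the 6 other arms of the same hairpins added, all 16 arms summed to 1188 ± 168 CPM over the 9 libraries (SD). miR-500a-5p had 76.5 ± 16.4 CPM, miR-500b-5p 50.2 ± 6.16 CPM and miR-502-5p 16.6 ± 5.31 CPM. miR-188-3p, miR-500b-3p and miR-660-3p averaged 1.80, 1.39 and 0.377 CPM. Of these 6 arms, 5 were tested, and 0 passed in any comparison (edgeR adjusted p 0.974 or more, with 0 at an unadjusted p under 0.05). At 5 h against 0 h the log2 fold change was -0.26 for miR-500a-5p (interval -0.75 to 0.22) and -0.03 for miR-500b-5p (interval -0.47 to 0.42). With miR-500b-5p counted beside miR-362-5p, the seed AUCCUUG had 74.7% of its summed level from miR-362-5p. The seed AUGCACC had 89.8% from miR-501-3p and 10.2% from miR-502-3p.

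The miRNAs whose levels followed the summed members most closely were found among 115 mature miRNAs with a mean of at least 100 CPM. miR-181a-5p, an abundant lymphoid miRNA, had the highest Pearson r over the 9 libraries, 0.947 (Spearman rho 0.983). It was followed by miR-151a-5p with 0.941, miR-181b-5p with 0.936, miR-1246 with 0.928 and miR-93-5p with 0.921. Left out were then replicate 3 of 12 h and replicate 2 of 5 h, the libraries farthest from the median, and r was then highest for miR-151a-5p (0.961) and miR-93-5p (0.930), ahead of miR-181a-5p (0.911), miR-1246 (0.881) and miR-181b-5p (0.770), so the order among the 5 rests on those libraries. These are descriptions with no test, since the 5 were picked as the highest and every point shares its library and scaling. miR-181a-5p had 26374 ± 964 CPM at 5 h and 32350 ± 8272 at 12 h, against 29963 ± 2689 at 0 h (SD, n = 3 each).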

How the data were processed

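Per the file headers, the authors deposited raw counts, in 2883 rows that each join a precursor and a mature name. They also deposited log2 values for 430 rows, 9 of them members, used in an alternative. Per the submitters' processing notes, they used GRCh38.p13 and DESeq2; the sources used here give no aligner, counter or version. Per the labels' protocols, libraries were made with RealSeq kits. Groups and replicates came from the sample titles.

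Of 1214 rows above 0, 701 passed filterByExpr (minimum count 10, minimum total 15). Counts were scaled by TMM and fitted in edgeR 4.0.16 (R 4.3.3) with 1 mean per time over all 9 libraries, and p-values were adjusted by Benjamini-Hochberg over all rows. Arm ratios (pseudocount 0.5 counts) were tested with limma 3.58.1 over 165 hairpins, a test chosen after the files were seen. Both fits were also run on simulated data, in which the changes put in were larger than the members' main estimates. How well changes of the members' size would be detected was not tested. No replicate pair was a duplicate (chi-square over degrees of freedom 83.6 or more). The members, the other arms, the marker list and the rule for naming miRNAs (all members and other arms, 5 most similar patterns, activation and marker checks) were chosen with earlier results of these data known. Alternatives were other scalings, filters, tools, sample sets and row definitions. Figures used Python 3.11.15 and matplotlib 3.10.9.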

Additional observations from a re-analysis of the deposited data

How the results depend on the processing

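In none of the alternatives run did a member pass: 0 were called in each of the 3 comparisons and in the test of any difference with RLE, library totals or upper quartile factors, with no or a stricter filter, with DESeq2 1.42.0, limma-voom or limma on the deposited log2 values, with 1 row per mature name, with near-identical 3p arms summed, without both shallowest libraries and without each library in turn. With only the 2 groups compared, 0 were called in each of the 3 comparisons. The lowest adjusted p among 582 alternative values of the members was 0.177, for miR-501-3p at 5 h against 0 h. Of those 582 values, 547 kept the sign and 35 did not. At 12 h against 0 h the log2 change of miR-501-3p was 0.038 with library totals, 0.15 with upper quartile factors, 0.041 with limma-voom and 0.10 without both shallowest libraries, and that of miR-502-3p was 0.014 with library totals and 0.13 with upper quartile factors. Between 12 h and 5 h that of miR-500a-3p was 0.095 with upper quartile factors. For miR-532-3p at 5 h it was -0.59 with limma-voom and -0.80 on the log2 values. Without both shallowest libraries it was 0.00155 for miR-362-5p at 5 h, -0.10 for miR-188-5p and -0.10 for miR-660-5p at 12 h, and 0.060 for miR-500a-3p and -0.18 for miR-532-5p between 12 h and 5 h. Upper quartile factors moved the median of all rows by 0.16 at 12 h against 0 h and by 0.16 between 12 h and 5 h. The cause of the other shifts was not tested.

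Whether the replicate number paired the libraries was not settled: 4 of 9 same-numbered pairs had deviations correlated above 0.1 (range -0.18 to 0.25). With the replicate block 0 members were called as well, and the 12 h change was 0.013 for miR-501-3p and 0.016 for miR-502-3p. Over all rows the replicate block gave 11 calls between 12 h and 5 h in place of 4, and 21 for any difference in place of 12.

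Leaving out 1 library at a time gave these ranges where the sign varied. At 5 h against 0 h they were -0.32 to 0.15 for miR-502-3p, -0.35 to 0.00115 for miR-362-5p and -0.74 to 0.72 for miR-532-3p. At 12 h against 0 h they were -0.22 to 0.21 for miR-502-3p, -0.25 to 0.28 for miR-501-3p, -0.050 to 0.80 for miR-532-3p, -0.00351 to 0.67 for miR-188-5p, -0.11 to 0.19 for miR-362-5p and -0.13 to 0.22 for miR-660-5p. Between 12 h and 5 h they were -0.26 to 0.10 for miR-500a-3p, -0.25 to 1.26 for miR-532-3p, -0.18 to 0.20 for miR-532-5p and -0.064 to 0.25 for miR-502-3p. The log2 arm ratio of miR-532 ranged over -1.02 to 1.44 at 5 h and -2.09 to 0.37 between 12 h and 5 h, and that of miR-501 over -0.22 to 0.53 at 12 h and 0.45 to 1.19 at 5 h, where the lowest adjusted p was 0.0850. A pseudocount of 2 counts, chosen after seeing the data, changed no sign or call of these ratios. The ratio of miR-362 could not be fitted, since its 3p arm did not pass the filter.

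Calls over all rows were 17 at 5 h, 12 between 12 h and 5 h and 21 for any difference with no filter, 5, 6 and 7 (5 h, 12 h and any difference) on the log2 values, 6 at 12 h with only the 2 groups, 10 between 12 h and 5 h without 12 h replicate 1, and 7 for any difference without 12 h replicate 2, in place of 11 at 5 h, 10 at 12 h, 4 between 12 h and 5 h and 12 for any difference. With each mature name counted once, the members' share was 0.166% at 0 h, 0.148% at 5 h and 0.172% at 12 h, since repeated precursor rows then leave the total.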
